A study of Saccharomyces cerevisiae with 12 samples.

Results

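Wild-type Saccharomyces cerevisiae JN54 cells exposed to 43 °C for 60 min were compared with cells of the same strain kept at 30 °C, and the RNA of both was measured together on 2-colour cDNA microarrays. JN54 is a MATa laboratory strain with mutations in HIS3, *LEU2*, URA3, *TRP1* and *LYS2*, and is the parent of an ssa1/2 deletion mutant that the same study used. The heat-shocked cells were grown at 30 °C to logarithmic phase in rich medium (YPD) and moved to medium already at 43 °C, and by the labels the control cells stayed at 30 °C for the same 60 min. The members are the 3 arrays labelled with 43 °C and 60 min, experiments 1 to 3, of 6 arrays in all. The other 3 are heat-shocked for 30 min, each with its own 30 °C control. The experiments are described as independent, but nothing states that they came from separate cultures. The p-values thus rest only on spread between these arrays, that of the feature combined with spread pooled over all features. The arrays gave log2 ratios of heat-shocked over control for 6019 features, of which 5376 carry a gene symbol and 643 do not. Values in all 3 arrays were available for 5990 of the features. A positive value is higher in heat-shocked cells. All values below are log2 ratios at 60 min unless a fold or another time is named, means are given ± SD over the 3 arrays, and p is from limma, adjusted over all 6019 features.

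Heat unfolds proteins, and yeast is known to answer with a transcription programme that has several arms. The heat shock factor Hsf1 drives chaperone genes, which refold or disaggregate damaged proteins, and the factors Msn2 and Msn4 drive a general stress response that many kinds of stress share. In the endoplasmic reticulum (ER), unfolded proteins set off the unfolded protein response through Ire1 and Hac1, which raises ER chaperones and enzymes of oxidative folding. At the same time genes for ribosomal proteins, ribosome assembly and other needs of fast growth are turned down. Damaged proteins that are not refolded are tagged with ubiquitin and cut by the proteasome, or are broken down in the vacuole, to which autophagy delivers them.

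The question was which genes changed at 60 min beyond the spread between the 3 arrays. The arrays did not give equally large changes: 849, 918 and 182 features were over 2-fold up in experiments 1, 2 and 3, and 952, 1054 and 555 were over 2-fold down. Pairs of arrays correlated across features at 0.598 (experiments 1 and 2), 0.665 (1 and 3) and 0.736 (2 and 3), as a description over features, which are not replicates. Experiment 3 was also the dimmest array by an indirect measure taken from the ratios. Its ratios matched those of whole numbers up to 100 for 43.7% of the features, against 19.7% in experiment 1 and 22.8% in experiment 2. A ratio of small whole numbers is more likely from a weak spot, since spot brightness is recorded in whole units. Ratios were matched in their reduced form, so a bright spot can also match small whole numbers. The median SD of a feature was 0.45 at 60 min, against 0.27 at 30 min. Every change described here is relative to the pool of RNA on the array, and fewer cells with a transcript and less of it per cell cannot be told apart.

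By limma 515 features were higher (8.56% of those tested) and 755 were lower (12.5%), together 21.1%. The counts of the gene groups below are to be read beside these shares, and several groups lie near them. The rule of the study's methods, over 2-fold in at least 2 of 3 experiments, took 415 features up (6.89%) and 630 down (10.5%), and 343 of the 415 and 596 of the 630 were also called by limma. Large falls outnumbered large rises: 45 called features were over 4-fold higher and 148 were over 4-fold lower, 6 and 50 passed 8-fold, and 2 and 9 passed 16-fold. The median of the mean ratios of all features was 0.01. Called features had 1 sign in every array for 1266 of 1270. With all 3 arrays above 0 there were 1669 features (27.9% of the 5990 measured in all 3), and 1697 (28.3%) had all 3 below 0. Among called features, experiment 3 was the array nearest to 0 for 376 of 514 higher and 467 of 755 lower ones, and experiment 1 was the farthest from 0 for 344 of the 514 higher ones. Only 187 of the 515 higher and 391 of the 755 lower features stayed called whichever array was left out, so counts for gene groups with over 3 calls in a direction are given below with the number that held, that is, passed whichever array was left out. Subtracting the median of each print block, the group of neighbouring spots that the probe identifiers give, kept 294 of the 515 and 575 of the 755.

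**Figure D1:**
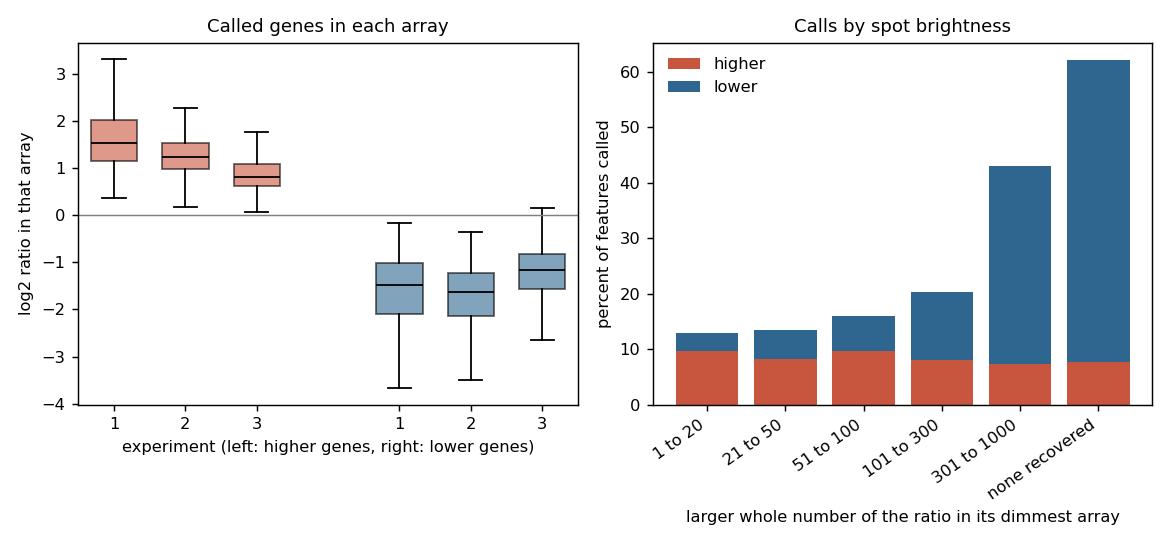
Left, log2 ratios of the features called higher and lower at 60 min in each of the 3 arrays (line: median; box: quartiles; whiskers: up to 1.5 times the box); experiment 3 lies nearest to 0, with medians of 0.81 and -1.15. Right, percent of features called, by the larger whole number of the reduced ratio in the array where it was smallest, an indirect measure of spot brightness. Higher calls make up a similar share in every bin, while the share of lower calls grows with that number.

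The share of lower features grew with this indirect measure of brightness, while that of higher features did not. Of the 988 features with a ratio of whole numbers up to 20 in an array, 95 were higher and 32 lower, whereas of the 248 features for which no whole numbers were recovered, 19 were higher and 135 lower. The part of brightness in the calls was not tested. The median span of a gene in RefSeq R64, introns included and not used by the calls, was 1126.5 bases over the 452 higher features with a span, 1188 over 714 lower ones and 1230 over all 5355. Without the ribosomal protein genes it was 1341 bases over 597 lower features.

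The highest gene of all was *HSP12*, which encodes a small membrane-associated heat shock protein. Its log2 ratio was 5.51, 4.91 and 3.86 in experiments 1 to 3, a mean of 4.76 ± 0.84 or 27.1-fold (adjusted p = 1.84e-06). All 3 arrays lay far above 0. *HSP26*, a small heat shock protein that holds unfolded proteins in a form open to refolding, followed with 5.58, 3.72 and 1.76 and a mean of 3.69 ± 1.91. Its arrays spread more than those of any other gene in the top 12, with experiment 3 well below the others. The cell wall protein gene *PIR3* was the steadiest of the top 12, with 3.43, 3.08 and 3.65, a mean of 3.39 ± 0.28 and 10.5-fold (adjusted p = 5.57e-06). *DDR2*, a marker of the general stress response, gave 4.60, 3.19 and 2.10. *PHO84*, the high-affinity phosphate transporter, gave 4.78, 3.04 and 1.98. In both genes experiment 1 was highest and experiment 3 lowest.

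The rest of the 12 highest named genes had means between 2.59 and 2.87. They were *CPP3* at 2.87 ± 1.18, *SSA4* at 2.83 ± 0.75, *BNA2* at 2.81 ± 0.33, *GPG1* at 2.77 ± 1.14, *CYC7* at 2.65 ± 0.81, *BAG7* at 2.61 ± 0.89 and *GCV1* at 2.59 ± 1.16. *BNA2* opens the route from tryptophan to NAD, *GPG1* encodes a partner of the G protein Gpa2 of glucose sensing, *CYC7* encodes the minor form of cytochrome c and *GCV1* a subunit of glycine decarboxylase. One spot without a gene symbol rose as far as *HSP12*, with 5.65, 4.43 and 4.16. Outside these 12, and chosen after their values were seen, were *SSU1*, the sulfite pump, at 2.50 ± 0.71, *HSP31*, a stress-induced glyoxalase and chaperone, at 2.46 ± 0.44, and *PTP2*, a phosphatase that acts on MAP kinases, at 2.35 ± 0.84.

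**Figure D2:**
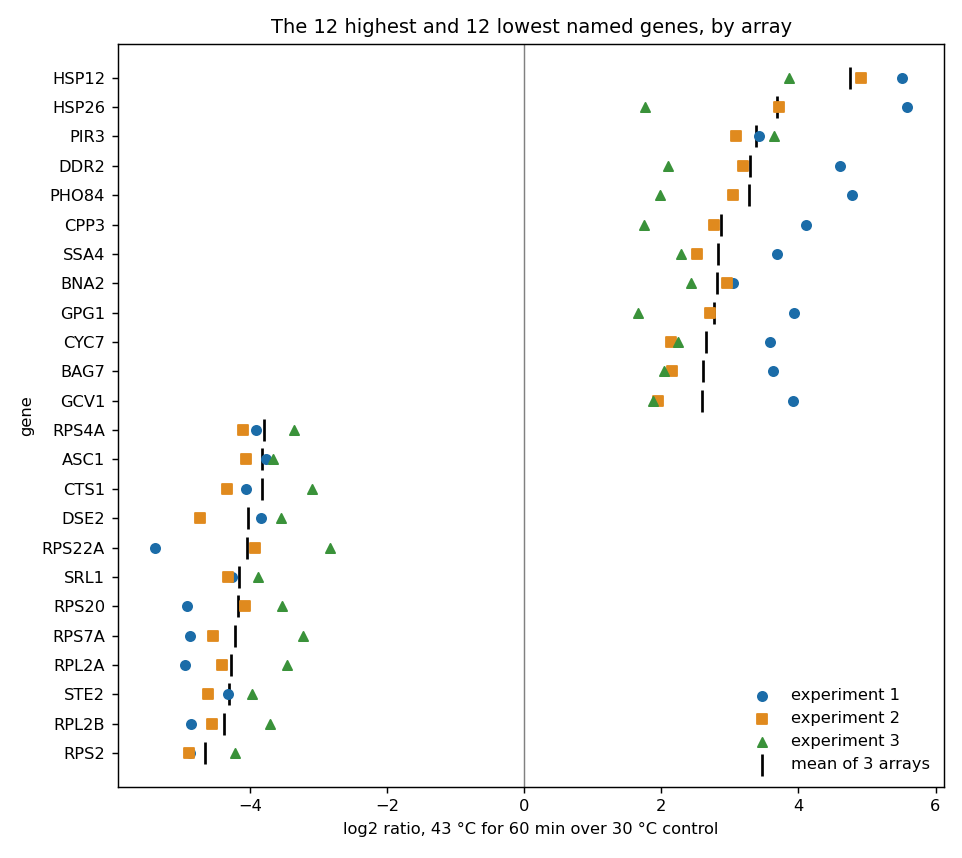
Log2 ratio of 43 °C for 60 min over the 30 °C control (horizontal axis) for the 12 highest and 12 lowest named genes that were called and had the same sign in all arrays; points are the 3 arrays and bars their mean. Experiment 3 is nearest to 0 for most of them, while *PIR3*, *BNA2*, *SRL1* and *ASC1* hardly differ between arrays.

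At the other end 8 of the 12 lowest named genes encode ribosomal proteins or, for *ASC1*, a protein bound to the small ribosomal subunit. *RPS2* was the lowest of all, with -4.88, -4.90 and -4.23 and a mean of -4.67 ± 0.38, or 25.4-fold lower (adjusted p = 1.84e-06). The other 4 belong to mating and to the cell wall. *STE2*, the receptor for alpha-factor on MATa cells, gave -4.32, -4.62 and -3.97 and was 19.8-fold lower. *SRL1*, a mannoprotein of the cell wall, gave -4.26, -4.33 and -3.89. *DSE2* and *CTS1*, both made by daughter cells to take the septum apart, averaged -4.04 ± 0.62 and -3.83 ± 0.65. In each of these all 3 arrays lay below -3.

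Cytosolic chaperones did not move as one group. Of 7 measured genes of the Hsp70 and Hsp110 families 2 rose and 2 fell, and the SSA1 gene is not named on the array. Each direction was 28.6% of the group, beside 8.56% higher and 12.5% lower over all features. *SSA4*, a heat-inducible Hsp70, gave 3.68, 2.52 and 2.28 and was 7.10-fold higher (adjusted p = 5.70e-05). *SSA3*, also stress-inducible, gave 2.83, 1.35 and 0.67, a mean of 1.61 ± 1.10. *SSA2*, which is made at all times, had -0.18, -0.92 and -1.0 and did not pass (adjusted p = 0.112). The study describes SSA1 and *SSA2* as nearly identical in sequence, so the *SSA2* spot can bind both transcripts. The Hsp70s that sit on the ribosome and fold new chains fell in every array: *SSB2* gave -1.77, -2.43 and -2.09 and *SSZ1* gave -1.32, -1.94 and -1.47. The Hsp110 genes did not pass, *SSE1* at 0.22 ± 0.43 and *SSE2* at 0.68 ± 0.99, with a value over 1 for *SSE2* in experiment 1 only. After print-block centring *SSA3* did not pass (adjusted p = 0.15).

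*HSP104*, the disaggregase that pulls chains out of aggregates, gave 2.71, 1.35 and 0.45, a mean of 1.5 ± 1.14 (adjusted p = 0.0133). *HSP42*, the third gene of that list, gave 1.53, -0.55 and -1.38. Its arrays lay on both sides of 0, so 5 of the 6 genes fixed as a check of the heat label (*HSP12*, *HSP26*, *HSP104*, *SSA4* and *HSP82*) were above 0 in every array and *HSP42* was not. In the Hsp90 system 2 of 14 genes rose and 1 fell, or 14.3% and 7.14% beside 8.56% and 12.5% of all features. *HSP82*, the inducible Hsp90, gave 1.74, 1.01 and 1.09, and its co-chaperone *CPR6* averaged 1.30 ± 1.01. *HSC82*, the constitutive Hsp90, had a mean of 0.02 ± 0.64 and did not pass (adjusted p = 0.972). Whether the *HSP82* and *HSC82* spots share signal was not tested. *CPR7* was lower at -0.95 ± 0.23, and was the member that fell. The calls of *HSP104* (experiment 1), *CPR6* (experiment 1) and *CPR7* (any experiment) were lost without the array in brackets (adjusted p 0.0547 to 0.138). *HSP104*, *CPR6* and *CPR7* did not pass after print-block centring (adjusted p 0.0704 to 0.118).

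Among 14 J-proteins and exchange factors, which work with Hsp70, 2 rose (*SWA2* and *JJJ1*) and 2 fell (*SIS1* and *FES1*). None of these calls held whichever array was left out. Each direction made up 14.3% of the group, beside 8.56% higher and 12.5% lower over all features. The TRiC and prefoldin complexes, which fold actin and tubulin, had 0 of 13 genes higher and 2 lower (*CCT7* and *CCT8*). Those 2 were 15.4% of the group, beside 12.5% of all features. Mitochondrial chaperones and proteases had 1 of 16 higher and 2 lower, or 6.25% and 12.5% beside 8.56% and 12.5% of all features. *HSP78*, the mitochondrial relative of Hsp104, gave 1.66, 1.33 and 0.65. The Hsp70 of the matrix, *SSC1*, averaged -1.0 ± 0.42 and its J-protein *MDJ1* -1.07 ± 0.76. *HSP60*, the matrix chaperonin, was at -0.39 ± 0.25 (adjusted p = 0.354). Without the array in brackets, *SWA2* (experiment 1 or 3), *JJJ1* (experiment 1 or 3), *SIS1* (experiment 2 or 3), *FES1* (experiment 2 or 3), *CCT7* (experiment 2 or 3), *CCT8* (any experiment), *SSC1* (experiment 2 or 3) and *MDJ1* (experiment 3) did not pass (adjusted p 0.0813 to 0.337). Centring the print blocks ended the call for *SWA2*, *HSP78*, *SSC1* and *MDJ1* (adjusted p 0.0539 to 0.129).

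Genes of ER folding gave some of the clearest rises. Of 18 measured 6 rose and 1 fell, and 4 of the rises stayed called without any 1 array. *KAR2*, the ER Hsp70, gave 2.07, 1.95 and 2.39, a mean of 2.14 ± 0.23 and 4.40-fold (adjusted p = 1.69e-04). *SIL1*, which exchanges nucleotide on Kar2, gave 2.74, 2.39 and 1.94. *ERO1*, which supplies the oxidising power for disulfide bonds, gave 3.18, 2.25 and 1.41. The arrays agreed closely for *KAR2* and *SIL1*, and *ERO1* was above 1 in every one.

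*SCJ1*, a J-protein partner of Kar2, averaged 1.30 ± 0.45, and the disulfide isomerase *MPD1* averaged 1.16 ± 0.64. *PDI1*, the main disulfide isomerase, gave 1.03, 0.58 and 1.07 and passed (adjusted p = 0.0411). *ROT2*, which trims glucose from new glycoproteins, was the member that fell, at -0.93 ± 0.52. *LHS1*, a second ER Hsp70, had 0.61, 0.79 and 0.86 and did not pass (adjusted p = 0.0727). The sensor and the factor of the unfolded protein response did not pass either, *IRE1* at 0.55 ± 0.51 and *HAC1* at 0.13 ± 0.70. *HAC1* is controlled by splicing of its RNA, which a ratio of total signal does not show. Of 15 genes of ER-associated degradation, which sends misfolded ER proteins to the proteasome, 1 rose: *HRD1*, the ubiquitin ligase of that pathway, at 1.39 ± 0.78. That was 6.67% of the group, beside 8.56% of all features. *DER1*, another component, had 0.59, 1.39 and 0.52 and an adjusted p of 0.064, under 0.05 in the fit that shares the spread with 30 min. Leaving out the array in brackets ended the call for *MPD1* (experiment 2), *PDI1* (any experiment) and *ROT2* (any experiment) (adjusted p 0.0571 to 0.233). After print-block centring *MPD1* did not pass (adjusted p = 0.0547).

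The machinery of ER glycosylation and vesicle transport, in contrast to the chaperones, had only lower calls: 6 of 26 glycosylation genes and 7 of 25 genes of translocation and coats. Of these 4 and 2 held, and 4 and 2 passed after print-block centring. *OST1* of the oligosaccharyl transferase was at -1.90 ± 0.27 and *COP1* of the COPI coat at -1.71 ± 0.19. *SEC31* of the COPII coat was at -1.63 ± 0.49, and *PMT4*, an O-mannosyl transferase, at -1.52 ± 0.41.

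No subunit of the 26S proteasome passed limma's adjusted threshold at 60 min in the main fit on these arrays alone. By the 2-fold rule *RPN12* was up. All 32 measured genes lay between -0.74 and 0.72, with a median of -0.10. *PRE1* had 1.26, -0.53 and 0.86, *SCL1* had 0.87, -0.33 and 0.56 and *RPN12* had 1.16, 0.00 and 1.01. In all 3 genes experiment 2 was the lowest array. *RPN4*, the transcription factor of proteasome genes, was at -0.46 ± 0.52. At an unadjusted p under 0.05 there were 3 proteasome genes, *RPN12* above 0 and *PRE2* (-0.74 ± 0.19) and *PRE3* (-0.69 ± 0.55) below it, and the same 3 passed with the spread shared with 30 min (adjusted p = 0.0447, 0.0154 and 0.0465). *RPN12* also passed after print-block centring (adjusted p = 0.0206) and without experiment 2 (adjusted p = 0.0493). *PRE3* passed as lower after print-block centring (adjusted p = 0.0421) and without experiment 1 (adjusted p = 0.0461).

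Of 34 ubiquitin genes 5 were higher and 3 lower, or 14.7% and 8.82% beside 8.56% and 12.5% of all features, and none of these calls held whichever array was left out. *UBC5*, a ubiquitin-conjugating enzyme of stress, gave 1.29, 1.30 and 1.69. Its near twin *UBC4* gave 1.89, 0.17 and 1.02. Whether the spots of these twins share signal was not tested. The deubiquitinating enzymes *UBP9* and *UBP11* averaged 0.94 ± 0.36 and 1.0 ± 0.38, while *UBP3* was at 0.42 ± 0.49 and did not pass. *UBI4*, the polyubiquitin gene, gave 0.55, 0.94 and 0.76, above 0 in all arrays and not past the threshold (adjusted p = 0.0747). The lower genes were *UFD2*, *RSP5* and *UBA1*, the last of which encodes the enzyme that activates ubiquitin, at -1.0 ± 0.23. *UBC5* (experiment 3), *UBC4* (experiment 1 or 3), *UBP9* (any experiment), *UBP11* (any experiment), *UFD2* (experiment 1 or 3), *RSP5* (experiment 2 or 3) and *UBA1* (any experiment) were not called once the array in brackets was left out (adjusted p 0.0513 to 0.222). *UBC4* and *UFD2* did not pass after print-block centring (adjusted p 0.0599 to 0.689).

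Autophagy genes had only higher calls, 7 of 27, with a list median of 0.52. *ATG8*, whose product is joined to the autophagosome membrane and was long called AUT7, gave 2.79, 1.90 and 1.29 and was 3.98-fold higher (adjusted p = 8.67e-04). *ATG17* (once APG17), the scaffold of the initiation complex, gave 2.84, 1.93 and 0.92. These were the genes of the list that stayed called whichever array was left out. The kinase gene *ATG1* averaged 1.18 ± 0.57 and *ATG23* averaged 1.04 ± 0.31, whereas *ATG11*, *VPS30* and *ATG19* lay between 0.84 and 0.98. The calls of *ATG1* (experiment 1), *ATG23* (experiment 1 or 3), *ATG11* (any experiment), *VPS30* (experiment 1 or 3) and *ATG19* (any experiment) were lost without the array in brackets (adjusted p 0.063 to 0.2). Centring the print blocks ended the call for *ATG11*, *VPS30* and *ATG19* (adjusted p 0.108 to 0.487).

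In the vacuole 5 of 11 genes rose (3 held) and 1 fell, the aminopeptidase gene *APE3* at -1.16 ± 0.69. The higher ones include 3 inhibitors of vacuolar proteases: *PAI3* (of proteinase A) at 1.52 ± 0.38, *TFS1* (of carboxypeptidase Y) at 1.41 ± 0.29 and *PBI2* (of proteinase B) at 1.22 ± 0.53. *APE1*, an aminopeptidase that reaches the vacuole on the autophagy machinery, was at 1.21 ± 0.85. *PEP4*, proteinase A itself, had 0.68, -0.01 and 1.09 and did not pass. Without the array in brackets, *APE3* (experiment 2 or 3) and *APE1* (experiment 1) did not pass (adjusted p 0.0604 to 0.169). After print-block centring *PBI2* and *APE1* did not pass (adjusted p 0.0513 to 0.0631).

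**Figure D3:**
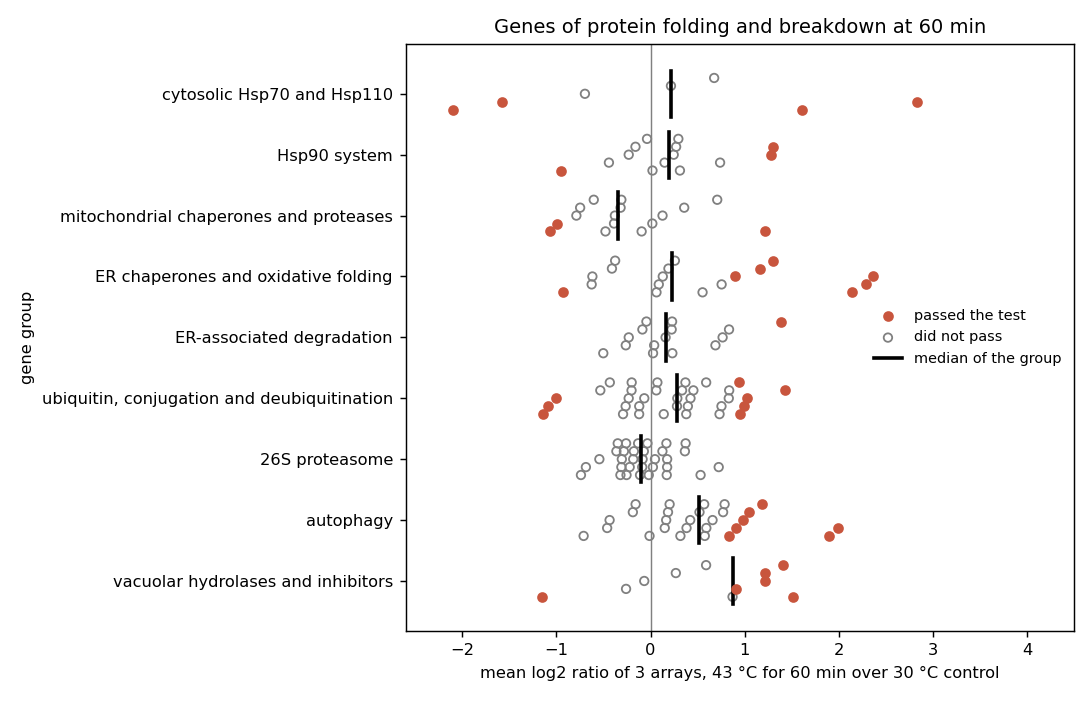
Mean log2 ratio at 60 min over 3 arrays (horizontal axis) for each measured gene of 9 groups of protein folding and breakdown; filled points passed the test, open points did not, and lines mark each group's median. Called cytosolic Hsp70 genes lie on both sides of 0, called autophagy genes lie only to the right, and no proteasome gene is filled.

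Of the lists with over 20 genes, the general stress response had the largest share of rises, 16 of 28 genes with 0 lower, and a median of 1.04. Whichever array was left out, 8 stayed called. Beside *HSP12* and *DDR2*, *PHM7* gave 3.00, 2.11 and 1.32, *YGP1*, a secreted glycoprotein, 2.83, 1.27 and 1.51, and *SPI1*, a cell wall protein, 1.97, 2.40 and 0.91. *CTT1*, the cytosolic catalase, gave 1.81, 1.44 and 0.07, with experiment 3 near 0. The transcription factors behind these programmes had few calls of their own: of 19, limma called *USV1*, at 0.87 ± 0.25, and the 2-fold rule took *XBP1*, at 0.74 ± 0.57 (adjusted p = 0.102). With the spread shared with 30 min, 3 were higher and 2 lower. *HSF1* was at 0.63 ± 0.67, *MSN2* at -0.05 ± 0.36 and *MSN4* at 0.27 ± 0.61, none of them past the threshold. Of 9 genes of the Ras and protein kinase A pathway none passed in limma, and 3 had an unadjusted p under 0.05. Both *RAS2* and *BCY1* passed with the shared spread, at -0.83 ± 0.27 and -0.83 ± 0.16. Leaving out the array in brackets ended the call for *CTT1* (experiment 1 or 2) and *USV1* (any experiment) (adjusted p 0.0703 to 0.17). *USV1* did not pass after print-block centring (adjusted p = 0.1).

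Genes for trehalose, a sugar that protects proteins in heat, had 1 higher call of 7, *NTH1*, which breaks it down, at 1.08 ± 0.40, and 1 lower, *TPS3* of the synthase complex, at -0.88 ± 0.35. Both shares were 14.3%, beside 8.56% higher and 12.5% lower over all features. *TPS1*, the synthase, had 0.38, -0.03 and -0.04. *TSL1*, another part of the complex, had 0.85, 0.62 and -1.30, with experiment 3 on the other side of 0. In glycogen metabolism *GAC1*, which directs a phosphatase to glycogen synthase, rose, at 2.45 ± 1.08, while *UGP1*, which makes UDP-glucose, fell, at -1.83 ± 0.50. The redox list had 6 higher and 5 lower genes of 29, of which 2 and 2 held. These were 20.7% and 17.2%, beside 8.56% and 12.5% of all features. The glutaredoxin *GRX1* gave 2.76, 1.55 and 1.15 and the mitochondrial thioredoxin *TRX3* 1.57, 1.40 and 1.55. The cytosolic thioredoxin *TRX1* fell with -1.98, -1.58 and -1.36, as did its reductase *TRR1* with -1.50, -2.13 and -1.89. Both enzymes of glutathione synthesis, *GSH1* and *GSH2*, were lower, at -1.20 ± 0.66 and -1.23 ± 0.52. *NTH1* (experiment 2 or 3), *TPS3* (experiment 2 or 3), *GSH1* (experiment 2 or 3) and *GSH2* (experiment 2) were not called once the array in brackets was left out (adjusted p 0.0504 to 0.311). Centring the print blocks ended the call for *NTH1* (adjusted p = 0.0537).

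Cytosolic ribosomal protein genes made up the largest block of lower genes. In the large subunit 67 of 72 and in the small subunit 50 of 52 (with *ASC1*) were lower, none was higher, and 60 and 45 stayed called whichever array was left out. The medians were -2.39 and -2.72, beside 0.01 over all features. In experiments 1, 2 and 3 the large subunit had medians of -2.82, -2.90 and -1.89, and the small subunit had -3.16, -3.03 and -1.94. Experiment 3 was thus nearest to 0 for both subunits.

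*RPL2B* gave -4.87, -4.55 and -3.71 and *RPL2A* -4.95, -4.41 and -3.46, and since these twin genes are nearly identical, each spot can bind both transcripts. That holds for many duplicated ribosomal protein genes. *RPS20*, a single-copy gene, gave -4.93, -4.08 and -3.54. *RPS7A* and *RPS22A* averaged -4.22 ± 0.87 and -4.05 ± 1.28. The genes for acidic proteins of the ribosomal stalk fell too, *RPP1A* at -2.62 ± 0.20 and *RPP2B* at -2.92 ± 0.62. Of the ribosomal protein genes that the study names, *RPL37A* was at -1.83 ± 0.64, *RPL25* at -1.62 ± 0.47, *RPS15* at -2.19 ± 0.62 and *RPL8B* at -2.63 ± 0.54, each lower in every array.

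The 7 ribosomal protein genes that limma did not call were mostly short. *RPL41A*, with a RefSeq span of 78 bases the shortest of the 7, had 0.95, 0.34 and 0.14, above 0 in each array. *RPS29A* and *RPS29B*, of 171 bases each, had means of -0.85 and -0.42. *RPL38*, *RPL39* and *RPL30*, of 237, 542 and 548 bases, lay between -1.19 and -1.07. *RPP0*, of 939 bases, was at -1.45 ± 2.88 with widely spread arrays. By the 2-fold rule *RPL30* and *RPP0* were down. The median span of the 7 was 237 bases, beside 810 bases for the 117 that were called. How span bears on the ratio was not tested.

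Other parts of translation fell with them. Of 39 translation factors 22 were lower (12 held) and none higher. *EFT2*, one of the twin genes of elongation factor 2, gave -4.36, -2.25 and -2.41. *TIF1* and *TIF2*, which encode the same helicase eIF4A, averaged -1.93 ± 0.64 and -1.96 ± 0.74. *YEF3*, the fungal elongation factor 3, averaged -1.74 ± 0.66. The cytosolic aminoacyl-tRNA synthetases, which charge tRNAs with amino acids, were lower for 18 of 20 (12 held), with a median of -1.43. Among them *DED81* gave -2.0, -2.79 and -2.06 and *ILS1* -2.25, -2.68 and -1.76.

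Ribosome assembly had a smaller share of lower genes than the ribosome itself, a difference given without a test. Of 89 biogenesis genes 16 were lower, 18% beside 12.5% of all features, the median was -0.38, and 4 stayed called whichever array was left out. *NOP1*, the methyltransferase of rRNA, gave -1.84, -2.28 and -1.59, and the helicase *DBP2* averaged -1.57 ± 0.83. *RPA190*, the largest subunit of RNA polymerase I, was at -1.46 ± 0.33. Of 23 genes of polymerases I and III 3 fell, 13% beside 12.5% of all features. Of 6 of polymerase II none was called, with 3 at an unadjusted p under 0.05. Mitochondrial ribosomal proteins had 6 lower genes of 69 (1 held), a smaller share than the 12.5% of all features. *MRPL10* had -1.60, -0.08 and -0.54, *RSM10* had -0.93, 0.29 and 0.63 and *RSM18* had -0.49, 0.47 and 0.34, each with arrays on both sides of 0 or near it, and none passed. *MRP8* was at 0.71 ± 0.53 and did not pass.

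**Figure D4:**
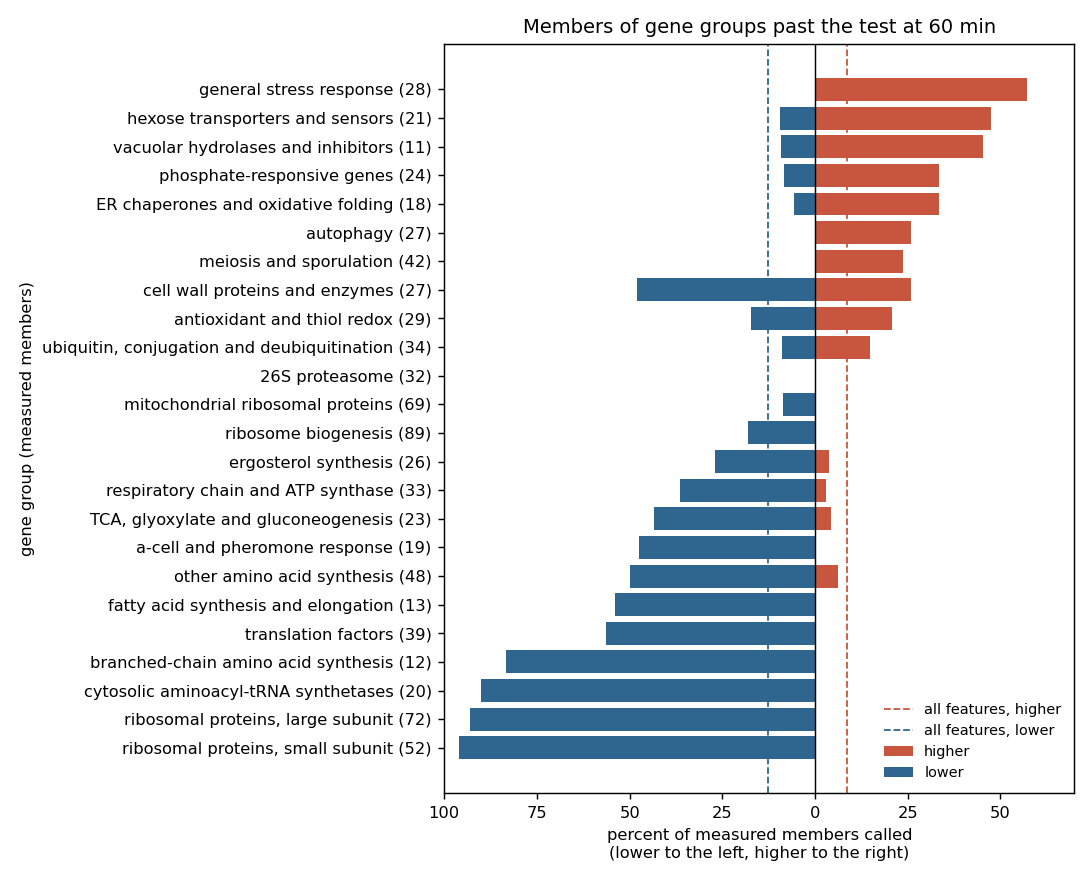
Percent of the measured members (numbers in brackets) of 24 gene groups that were called higher (right) or lower (left) at 60 min; dashed lines give the same for all 6019 features, 8.56% and 12.5%. Both ribosomal subunits, tRNA synthetases and branched-chain amino acid synthesis reach furthest to the left, and the general stress response furthest to the right.

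Amino acid synthesis fell widely. In the branched-chain pathway 10 of 12 genes were lower (6 held), with a median of -1.49. *LEU1* gave -2.79, -3.54 and -3.31, *ILV3* -2.81, -3.03 and -2.61 and *LEU2*, of which the strain carries a mutant allele, -3.04, -2.69 and -3.60. Of 48 genes for other amino acids 24 were lower (16 held), among them *HOM2* of the threonine route with -2.85, -2.87 and -2.28 and *GDH1*, which fixes ammonium into glutamate, with -2.36, -2.91 and -2.0. The higher ones were *ARG3*, *ARG8* and *SHM2*. *ARG3*, of arginine synthesis, gave 2.98, 1.97 and 1.33. The call of *ARG8* (experiment 2 or 3) was lost without the array in brackets (adjusted p 0.0548 to 0.117). After print-block centring *SHM2* did not pass (adjusted p = 0.111).

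Nucleotide genes also had lower calls, 4 of 10 for pyrimidines (4 held) and 6 of 18 for purines (3 held). *URA1* gave -3.01, -3.02 and -1.75 and the salvage gene *FUR1* -2.18, -3.21 and -2.22. *APT1*, of adenine salvage, averaged -2.42 ± 0.71. *ADE17*, one of the paired genes for the last steps to IMP, rose with 2.43, 1.87 and 2.12, while its partner *ADE16* fell with -0.74, -1.79 and -0.94. In sulfur metabolism 4 genes rose and 5 fell of 29, and 1 and 3 held. These were 13.8% and 17.2%, beside 8.56% and 12.5% of all features. *SUL1*, a sulfate transporter, averaged 0.96 ± 0.39, and *CYS4*, of cysteine synthesis, averaged -1.48 ± 0.64. *SAM1*, which makes S-adenosylmethionine, gave -0.17, -2.40 and -0.89, lowest in experiment 2. Without the array in brackets, *ADE16* (experiment 2 or 3), *SUL1* (experiment 3) and *SAM1* (experiment 2 or 3) did not pass (adjusted p 0.0662 to 0.368). *SAM1* did not pass after print-block centring (adjusted p = 0.23).

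*ADE17* and *SHM2* belong with glycine cleavage and one-carbon metabolism, a list written after the values were seen. Of its 11 genes 6 were higher (4 held) and 2 lower. All 3 subunits particular to glycine decarboxylase rose: *GCV1* gave 3.92, 1.96 and 1.88, *GCV2* 0.36, 2.01 and 1.49 and *GCV3* 1.39, 1.41 and 1.43. The fourth, *LPD1*, which pyruvate dehydrogenase shares, fell with -1.62, -1.57 and -1.95. *MTD1*, a folate dehydrogenase, gave 2.55, 0.38 and 1.94. Leaving out the array in brackets ended the call for *GCV2* (experiment 2 or 3) and *MTD1* (experiment 3) (adjusted p 0.0588 to 0.115). Centring the print blocks ended the call for *SHM2* and *GCV2* (adjusted p 0.111 to 0.236).

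Sugar transporters were called in both directions. Of 21 genes for transporters and sensors 10 rose and 2 fell, and 4 and 2 stayed called whichever array was left out. The genes that fell were *HXT1* and *HXT3*, the low-affinity carriers of cells in high glucose, with -2.08, -2.03 and -2.04 and -0.95, -2.30 and -1.57. *HXT1* had nearly the same value in every array. *HXT2*, a high-affinity carrier, gave 1.75, 1.21 and 1.71, and *HXT5*, known from slow growth, 1.69, 1.27 and 0.57. *HXT9*, *HXT11* and *HXT12* averaged 1.29, 1.16 and 1.5, but these genes are so alike in sequence that their spots can share signal. *HXT5* (experiment 2), *HXT9* (experiment 3) and *HXT11* (experiment 2) were not called once the array in brackets was left out (adjusted p 0.0531 to 0.0685). After print-block centring *HXT5* did not pass (adjusted p = 0.0803).

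Glycolysis had 2 higher and 3 lower genes of 21, or 9.52% and 14.3% beside 8.56% and 12.5% of all features. *TDH1*, the stress form of glyceraldehyde phosphate dehydrogenase, gave 2.08, 1.53 and 0.86, while *TDH2* and *TDH3* had means of -0.07 and -0.01. Whether their spots share signal was not tested. *GLK1*, a glucokinase, averaged 0.87 ± 0.19 and *HXK2*, the main hexokinase, -1.33 ± 0.11. *PDC1*, the main pyruvate decarboxylase, averaged -1.02 ± 0.27. In the pentose phosphate pathway *NQM1*, a second transaldolase, gave 2.64, 2.81 and 1.91 and the minor dehydrogenase *GND2* averaged 1.41 ± 0.99, whereas *RPE1*, an epimerase of the same pathway, averaged -2.10 ± 0.58. The calls of *GLK1* (any experiment), *HXK2* (experiment 3), *PDC1* (experiment 2 or 3) and *GND2* (experiment 1) were lost without the array in brackets (adjusted p 0.0571 to 0.157).

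The tricarboxylic acid (TCA) cycle and its relatives had 10 lower genes of 23 (3 held) and 1 higher, *PCK1* of gluconeogenesis at 1.24 ± 0.33. *ACO1* (aconitase), *IDH1* (isocitrate dehydrogenase) and *LPD1* averaged -1.72 ± 0.85, -1.50 ± 0.14 and -1.71 ± 0.21. In the respiratory chain and ATP synthase 12 of 33 were lower, of which 5 held and 8 passed after print-block centring. *ATP2*, the catalytic subunit of the synthase, gave -2.10, -1.99 and -1.38, and *COX5A* of cytochrome oxidase -1.92, -1.77 and -0.82. *CYC7* was the only higher one of that list, while *CYC1*, the major cytochrome c, was at 0.13 ± 0.75. *ALD6*, the main cytosolic acetaldehyde dehydrogenase, gave -1.66, -3.72 and -1.23, with experiment 2 the lowest.

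Cell wall genes went both ways. Of 27 measured 7 rose and 13 fell, and 6 and 8 stayed called whichever array was left out. With *PIR3* rose *HSP150*, also a Pir protein, which gave 3.63, 1.49 and 1.93, and *PST1*, a protein of the cell integrity response, which gave 1.81, 1.55 and 1.66. *SED1*, the main wall protein of resting cells, averaged 1.32 ± 0.64. On the lower side stood *CHS2*, the chitin synthase of the septum, with -3.42, -1.97 and -1.73, the crosslinking enzyme *UTR2* with -1.78, -2.0 and -2.09 and the glucanases or glucan-modifying enzymes *SCW4* and *GAS1* with means of -1.94 and -1.70. *CIS3* and *PIR1*, which are Pir proteins as well, averaged -1.90 ± 0.60 and -1.31 ± 0.68. In the cell wall integrity pathway the sensor *MTL1* and the transcription factor *RLM1* rose, at 1.82 ± 0.69 and 1.36 ± 0.49, and the sensor *WSC2* and the kinase gene *PKC1* fell, at -1.41 ± 0.34 and -0.90 ± 0.32. Without the array in brackets, *PIR1* (experiment 2) and *PKC1* (experiment 2 or 3) did not pass (adjusted p 0.093 to 0.189). *SED1*, *PIR1* and *PKC1* did not pass after print-block centring (adjusted p 0.0556 to 0.0828).

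A group of genes used by daughter cells to separate from their mothers, listed after the values were seen, held several of the lowest ratios. Of 10 genes 6 were lower, and all of these stayed called whichever array was left out. *DSE2* gave -3.84, -4.73 and -3.54, *CTS1*, the endochitinase, -4.06, -4.34 and -3.10, *SCW11* -3.64, -3.42 and -3.41 and *DSE1* -3.47, -3.56 and -2.31. All arrays of these genes were far below 0. *EGT2* and *SUN4* averaged -2.65 ± 0.44 and -1.36 ± 0.26. *DSE3*, *DSE4* and *AMN1* were at -0.78, -0.08 and -0.90 and *ASH1*, a repressor found in daughter nuclei, at 0.32 ± 0.59, none of them past the threshold.

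Genes that mark MATa cells or carry the mating signal fell in 9 of 19 cases (7 held) and rose in none. After *STE2* the lowest was *STE6*, the exporter of a-factor, with -3.32, -2.88 and -3.24. *MFA2* and *MFA1*, the a-factor genes, gave -4.05, -1.62 and -1.35 for *MFA2* and -2.62, -0.62 and -0.41 for *MFA1*, with experiment 1 far below the others in both. *AGA2*, an agglutinin of MATa cells, averaged -1.98 ± 0.83, and the G protein gene *GPA1* averaged -1.94 ± 0.30. *STE3*, the pheromone receptor of cells of the opposite mating type, rose with 2.69, 1.54 and 0.66 (adjusted p = 0.00626). *SAG1*, another gene of that mating type, was at -0.52 ± 0.33 and did not pass. Ratios give no level, so how much of either RNA the cells held cannot be read from them. Leaving out the array in brackets ended the call for *MFA1* (experiment 1) (adjusted p = 0.304). Centring the print blocks ended the call for *STE3* (adjusted p = 0.079).

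Of 19 cell cycle regulators 2 rose and 5 fell (4 held), or 10.5% and 26.3% beside 8.56% and 12.5% of all features. *CDC5*, *CLB1* and *SWI5*, which act in mitosis and at its exit, averaged -1.93 ± 0.69, -1.89 ± 0.89 and -1.32 ± 0.33. *CLN2*, a G1 cyclin, gave -3.16, -1.32 and -0.58. *PCL5*, a cyclin tied to amino acid control, rose with 2.05, 1.69 and 2.46. *CLB2*, the main mitotic cyclin, had -3.10, 0.35 and -1.0 and did not pass (adjusted p = 0.0782). Of 10 histone genes 5 were lower (2 held), with *HTA1* at -1.79 ± 0.25 and *HHT1* at -1.69 ± 0.45, though twin histone genes can share signal. *RNR1*, the large subunit of ribonucleotide reductase, gave -2.49, -2.67 and -2.16 and *POL30*, the sliding clamp of replication, -1.71, -1.97 and -0.80. Of 26 cytoskeletal genes 5 were lower (2 held), 19.2% beside 12.5% of all features. They were led by cofilin (*COF1*) at -1.75 ± 0.40 and beta-tubulin (*TUB2*) at -1.63 ± 0.48, while *ACT1* was at -0.62 ± 0.63 and did not pass.

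Lipid synthesis had lower calls in fatty acids (7 of 13), sterols (7 of 26) and sphingolipids (4 of 22), of which 6, 3 and 2 held. The sphingolipid share was 18.2%, beside 12.5% of all features. *ELO2*, which lengthens fatty acids, gave -2.37, -2.93 and -2.04, *FAS2* of fatty acid synthase -2.17, -1.59 and -1.35 and *ERG13*, at the head of the sterol route, -1.95, -2.0 and -1.04. *LAG1* of ceramide synthase averaged -1.77 ± 0.58. The sterol regulator *UPC2* was the higher gene of its list, at 0.87 ± 0.17. *UPC2* (any experiment) was not called once the array in brackets was left out (adjusted p 0.0799 to 0.144). After print-block centring *UPC2* did not pass (adjusted p = 0.349).

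At the plasma membrane *PMA1*, the proton pump, gave -2.15, -1.40 and -1.70, and *HSP30*, known as a brake on that pump in stress, gave 2.83, 3.08 and 0.38, with experiment 3 far below the others. Genes of the vacuolar proton pump, listed after the values were seen, were lower for 10 of 14 (6 held), with *VMA6* at -2.50 ± 0.19 and *VMA1* at -1.55 ± 0.08. The eisosome proteins of the membrane, named after their values were seen, fell as well: *SUR7* gave -1.93, -2.85 and -2.19 and *LSP1* -1.69, -2.39 and -1.79, while *PIL1* gave -0.18, -2.86 and -1.93. The call of *PIL1* (experiment 2 or 3) was lost without the array in brackets (adjusted p 0.0655 to 0.0938). *PIL1* did not pass after print-block centring (adjusted p = 0.115).

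In a list of phosphate-responsive and acid phosphatase genes, 8 of 24 rose (5 held) and 2 fell. Beside *PHO84*, the sodium-phosphate carrier *PHO89* gave 3.07, 1.95 and 1.35 and *SPL2*, a regulator of low-affinity uptake, 2.63, 1.91 and 1.51. Genes of polyphosphate (*VTC3*) and of glycerophosphoinositol uptake (*GIT1*) averaged 1.17 ± 0.33 and 1.43 ± 0.47. The acid phosphatases ran the other way: *PHO3* gave -3.18, -3.23 and -2.72 and *PHO5* -1.58, -1.03 and -0.57. *PHO5* is itself a target of phosphate limitation, and here its spot was lower. Whether that spot shares signal with the one of *PHO3* was not tested. Without the array in brackets, *VTC3* (experiment 3) and *PHO5* (any experiment) did not pass (adjusted p 0.0526 to 0.0912).

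Among metal genes 3 of 10 for metallothioneins and copper were higher. The metallothionein gene *CRS5* gave 3.41, 2.20 and 1.16 and *CUP1-1* 2.66, 0.94 and 0.24, while the copper carrier *CTR1* fell with -1.49, -1.37 and -1.01. The iron uptake genes *FET3* and *FRE1* gave -2.58, -3.0 and -2.84 and -2.20, -3.40 and -2.18, and 4 of 18 iron genes were lower (3 held) against 1 higher. These were 22.2% and 5.56% of the iron genes, beside 12.5% lower and 8.56% higher over all features. Amino acid permeases had 4 higher and 4 lower of 17 (1 and 2 held), with *AGP1* at 1.51 ± 0.30 and *GAP1* at 1.16 ± 0.19 against *BAP3* at -1.97 ± 0.22. Leaving out the array in brackets ended the call for *CUP1-1* (experiment 1) and *GAP1* (experiment 3) (adjusted p 0.0638 to 0.232). Centring the print blocks ended the call for *CUP1-1* (adjusted p = 0.0616).

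Thiamine genes, again listed after the values were seen, were higher for 8 of 16 (5 held) and lower for none. *THI12* gave 2.62, 2.81 and 2.08, *THI13* 2.44, 2.97 and 2.16 and *THI20* 2.63, 1.89 and 1.66. *THI5* and *THI11* averaged 1.83 ± 1.08 and 1.74 ± 1.03, but *THI5*, *THI11*, *THI12* and *THI13* are nearly identical and count as little more than 1 observation. *THI4*, of the thiazole branch of thiamine synthesis, had -0.29, 1.14 and 0.56 and did not pass. After print-block centring *THI5* did not pass (adjusted p = 0.0575).

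Genes of meiosis and spore formation, which vegetative cells keep low, had 10 higher calls of 42 and none lower, with 2 left whichever array was left out and 4 after print-block centring. *SPO1* and *REC8* averaged 1.29 ± 0.29 and 1.26 ± 0.43. The seripauperin, TIR and DAN families had 4 higher of 27 (0 held), or 14.8% beside 8.56% of all features, with *PAU5* at 1.27 ± 0.66. Spots of the many near-identical copies can share signal, which was not tested. *PAU5* (experiment 2) was not called once the array in brackets was left out (adjusted p = 0.0589). *PAU5* did not pass after print-block centring (adjusted p = 0.0556).

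The 60 min arrays were then set against the 30 min ones. No feature passed an adjusted p of 0.05 in limma (0% of 6019), the smallest adjusted p was 0.449, and 516 features had an unadjusted p under 0.05. The 60 and 30 min samples have separate controls, so no array is shared. Between 60 and 30 min no feature was thus called, higher or lower.

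Of the 5 smallest unadjusted p-values 4 belonged to open reading frames named only by position. *YCL019W* gave 2.09, 1.13 and 1.72 at 60 min, against 0.02, -0.36 and -0.61 at 30 min, a difference of 1.96 ± 0.34 (SE, unadjusted p = 1.20e-04, adjusted p = 0.449). *YCL020W* gave 1.88, 0.84 and 1.55 at 60 min, against -0.01, -0.66 and -0.62 at 30 min. *YOR343W-B* gave 2.07, 0.79 and 1.75 at 60 min, against -0.06, -0.53 and -0.49 at 30 min. In these frames every array of 60 min was above every array of 30 min, as also in *YBL100W-A*, with means of 0.88 and -0.86. *YCL019W*, *YCL020W* and *YOR343W-B* had similar values in each array, so they may not be separate observations. Whether their spots share signal was not tested. Against 0 at 60 min *YCL019W*, *YCL020W* and *YOR343W-B* were called and *YBL100W-A* was not (adjusted p = 0.0628).

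*SCW11*, the fifth gene, gave -3.64, -3.42 and -3.41 at 60 min, against -2.08, -0.14 and 0.09 at 30 min, a difference of -2.78 ± 0.50 (SE, unadjusted p = 1.80e-04). *DSE1* and *DSE2* averaged -3.12 ± 0.70 and -4.04 ± 0.62 at 60 min, against -1.03 ± 1.12 and -1.54 ± 1.57 at 30 min. For *CTS1* the means were -3.83 ± 0.65 at 60 min and -1.97 ± 0.76 at 30 min. None of these differences passed the adjusted threshold. In *SCW11* and *DSE2* experiment 1 of 30 min stood apart, nearer to the 60 min arrays than the other arrays of 30 min. Without that array both passed, *SCW11* with a difference of -3.47 (adjusted p = 0.00825) and *DSE2* with -3.40 (adjusted p = 0.03), and no other feature did. *SCW11* also passed with the experiment number as a block (adjusted p = 0.0494).

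Of the inducible Hsp70 genes, *SSA4* and *SSA3* had lower means at 60 min, *SSA4* with 2.83 against 4.34 at 30 min and *SSA3* with 1.61 against 2.71. ER folding genes had the larger mean at 60 min, *KAR2* with 2.14 against 1.47 at 30 min, *SIL1* with 2.36 against 1.12 and *ERO1* with 2.28 against 1.05. *HXT1* stood at -2.05 ± 0.03 at 60 min and -0.74 ± 0.33 at 30 min, and *HXK1*, a hexokinase, at 0.23 ± 0.46 at 60 min and 2.14 ± 0.88 at 30 min. *MPC3*, of the mitochondrial pyruvate carrier, stood at -1.33 ± 0.49 at 60 min and 0.48 ± 0.55 at 30 min. For both ribosomal subunits the list medians were -2.39 and -2.72 at 60 min, against -2.06 and -2.21 at 30 min. Since no gene passed, these values are given as a description.

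**Figure D5:**
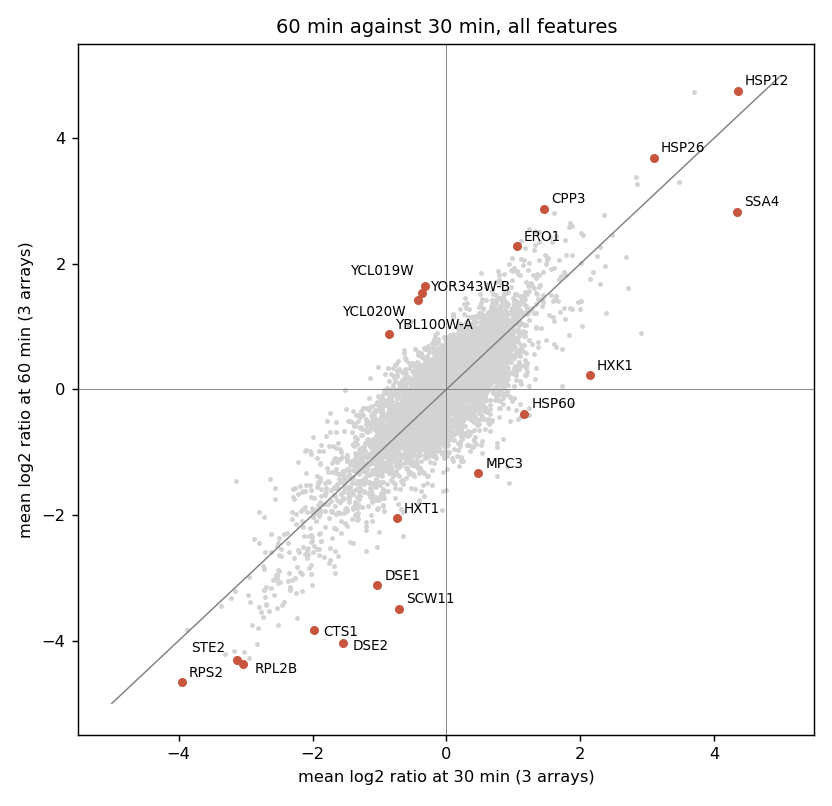
Mean log2 ratio over 3 arrays at 60 min (vertical axis) and at 30 min (horizontal axis) for all 6019 features, with genes named in the text marked; the line marks equal values. *SCW11*, *DSE1* and *DSE2* lie below the line and *YCL019W*, *YCL020W*, *YOR343W-B* and *YBL100W-A* above it, while no feature passed the test of the difference.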

How the data were processed

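Heat-shocked RNA was labelled with Cy5 and 30 °C control RNA with Cy3 and hybridised to cDNA arrays of yeast open reading frames, with no dye swap described, so dye and treatment cannot be told apart. Per the labels and the study's methods, spots were quantified with GenePix 4.0 and normalized in Chip Cleanser with negative control spots. The genome build is not given in the sources used here. The deposited values are log2 ratios made by the authors. The base is not stated and was settled from the values, which lie apart by logarithms to base 2 of ratios of whole numbers within 3e-09. The scans at high and low laser power held identical values and were counted once.

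Of 6162 probes with a value, 203 probes in 78 groups of identical values were counted once per group, and distinct probes of 18 genes were averaged, giving 6019 features. The mean of the 3 arrays of 60 min was tested against 0 with limma 3.58.1 in R 4.3.3 on these arrays alone (2 residual and 11.5 prior degrees of freedom, Benjamini-Hochberg, 0.05), without further normalization. The difference between 60 and 30 min was fitted over both times. No intensities are given, so no interval for counting error can be had, and 3 arrays limit the precision.

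Lists and members were chosen with earlier results of these data known. Genes named were the 12 highest and lowest, up to 5 called members of a list in each direction, members of lists of up to 20 genes, genes the study names and the 5 smallest p-values between times. Others were named after their values were seen. Gene symbols came from the platform annotation, updated through RefSeq R64.

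Pairs of 60 and 30 min arrays with the same experiment number deviated from their group means with correlations of -0.04, 0.12 and 0.35. For pairs with different numbers the correlations ran from -0.29 to 0.19. These values do not settle whether the numbers pair the samples, which were treated as unpaired in the main fit.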

Additional observations from a re-analysis of the deposited data

Results flagged for a closer look

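Among the genes named above, 5 had every array of 60 min on one side of 0 and every array of 30 min on the other, which was the reason for listing them here. *YCL020W* was above 0 in all arrays at 60 min and below 0 in all at 30 min, with a difference of 1.86 ± 0.35 (SE, unadjusted p = 2.74e-04). *YOR343W-B* did the same, with a difference of 1.90 ± 0.37 (SE, unadjusted p = 3.29e-04), and so did *YBL100W-A*, with 1.73 ± 0.35 (SE, unadjusted p = 5.08e-04). These frames may not be separate observations, since whether their spots share signal was not tested. *HSP60*, the chaperonin of the mitochondrial matrix, ran the other way, with -0.28, -0.21 and -0.67 at 60 min and 0.36, 1.60 and 1.52 at 30 min, a difference of -1.55 ± 0.37 (SE, unadjusted p = 0.00165). *PRE3*, a proteasome subunit gene, had -0.20, -1.29 and -0.57 at 60 min and 0.39, 0.09 and 0.46 at 30 min, a difference of -1.0 ± 0.34 (SE, unadjusted p = 0.0134). In limma over all 6019 features none of these differences passed (adjusted p from 0.449 to 0.516). Over all features measured in the 6 arrays, 81 of 5989 were above 0 in all at 60 min and below 0 in all at 30 min, and 63 were the reverse.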

How the results depend on the processing

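The test on the 3 arrays of 60 min alone gave 515 higher and 755 lower features, and a spread shared with the 30 min arrays gave 941 and 1096, of which 514 and 751 were the same features. With the experiment number as a random replicate block in that fit there were 947 higher and 1098 lower. Leaving out each array in turn gave 275 to 480 higher and 481 to 813 lower features. Each of these fits pooled its spread anew, so its p-values are not on one scale with those of the main fit. *RPS2* had an adjusted p of 5.5e-33 without experiment 1, against 1.84e-06 in the main fit. Without experiment 2 there were 286 higher and 497 lower, and without experiment 3 there were 275 and 481. Print-block centring gave 410 and 662, and median-centred arrays 503 and 790. Leaving out features with a ratio of whole numbers up to 20 in an array, an alternative chosen after seeing the data, gave 499 and 802.

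By the 2-fold rule, 415 features up and 630 down became 113 and 344 when all 3 experiments had to pass. Median-centred arrays gave 400 up and 643 down. Leaving out each array in turn gave 127 to 361 up and 380 to 514 down. Without experiment 1 there were 127 up, and without experiment 2 there were 153 up and 380 down. Had the values been natural logarithms, 892 and 1070 would have passed, and as log10 values 2120 and 1924. The whole-number ratios in the values matched base 2.

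Between 60 and 30 min 0 features passed in the fit without a block. With the experiment number as a fixed replicate block 1 feature was lower, *SCW11* (adjusted p = 0.0494). Leaving out each array in turn gave 0 to 2 lower and 0 higher features, the 2 being *SCW11* and *DSE2* without experiment 1 of 30 min. Whether the numbers pair the samples is not settled, so the fits with a block are given as alternatives.

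Of the 218 genes named in the text that passed, 61 were lost without at least 1 array and 32 after print-block centring. Of the 56 that did not pass, 10, 2 and 3 passed without experiments 1, 2 and 3, and 4 after print-block centring. Among these were *SSA2* (adjusted p = 0.0392), *DER1* (0.0401), *RPL38* (6.05e-04) and *RPP0* (1.21e-15) without experiment 1. After print-block centring *LHS1* (adjusted p = 0.0353) and *BCY1* (0.0404) were among them. No named gene changed direction while called. The search for promoter motifs was not run, since no promoter sequence was used here. Spot brightness is known only through whole-number ratios, which were most frequent in experiment 3. Whether brightness limited the calls of dim genes was not tested.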

Other observations

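Several pairs of related genes were called in opposite directions at 60 min, as found by going through the lists after the values were seen. *SOL4*, a 6-phosphogluconolactonase gene of the general stress response, gave 1.62, 1.73 and 0.32, and its relative *SOL3* gave -0.77, -1.0 and -1.78. No array of the one overlapped an array of the other, but the call of *SOL4* was lost without experiment 2 (adjusted p = 0.104) and that of *SOL3* without experiment 3 (adjusted p = 0.184). *TRX3* and *TRX1*, the thioredoxins of mitochondria and cytosol, gave 1.57, 1.40 and 1.55 for *TRX3* and -1.98, -1.58 and -1.36 for *TRX1*. *ADE17* and *ADE16*, which encode the same enzyme of purine synthesis, also lay apart in every array, with means of 2.14 ± 0.28 and -1.16 ± 0.55. *ADE16* was not called without experiment 2 or 3. Among Pir cell wall proteins *PIR3* and *HSP150* were higher, at 3.39 ± 0.28 and 2.35 ± 1.13, and *CIS3* and *PIR1* lower, at -1.90 ± 0.60 and -1.31 ± 0.68. *GLK1* and *HXK2*, which both phosphorylate glucose, averaged 0.87 ± 0.19 and -1.33 ± 0.11, calls that did not hold whichever array was left out. The cyclophilins *CPR6* and *CPR7* averaged 1.30 ± 1.01 and -0.95 ± 0.23, and neither call held whichever array was left out.

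In other pairs 1 partner passed and the other did not. *CYC7* was at 2.65 ± 0.81 and *CYC1* at 0.13 ± 0.75, *NQM1* at 2.45 ± 0.48 and *TAL1* at -0.70 ± 0.58, *GND2* at 1.41 ± 0.99 and *GND1* at -0.50 ± 0.65. In the last 3 pairs the higher partner is the one known for the lower expression in growing cells. The subunits *COX5A* and *COX5B* of cytochrome oxidase had means of -1.50 ± 0.60 and 0.84 ± 0.30, and only *COX5A* passed. The difference between partners was not tested, and how many pairs of all duplicated genes behave in this way was not counted. Whether the spots of partners share signal was not tested either.

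The called feature with the least even arrays among those named by the annotation was *FAF1*, a ribosome assembly gene, with -7.65, -0.87 and -0.20 and an adjusted p of 0.0452, which became 0.28 without experiment 1, 0.207 after print-block centring and 0.0531 with the spread shared with 30 min.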
